A study of Mus musculus with 2 samples.

Results

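The 36 genes described here mark the cells that wrap the blood vessels of the brain and the fibroblasts of its coverings: pericytes, vascular smooth muscle cells and meningeal fibroblasts. The rule takes them by name as known markers and uses no measured value, and all 36 were found among the 55536 gene entries quantified. Their levels were measured by total RNA sequencing in the left cerebral cortex of 2 male mice, adults of 8 to 10 months, from the strain B6CASTF1/J, the F1 hybrid of B6 and Cast per the labels. The animals, numbered 2 and 4 in the labels, are called replicate 1 and replicate 2. They form 1 group with no treatment or mutation, so no condition is compared, and a gene's 2 values, their SD and their ratio are given without a test. The labels give both the same donor. That they are separate mice, on which each SD depends, rests on the animal numbers and on the labels of biological replicate 1 and 2. Each library was made from 300 ng of tissue RNA with ribosomal RNA reduced and ERCC spike-in RNAs added.

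Mural cells sit on the outer face of the endothelium. Pericytes cover the capillaries and share the endothelial basement membrane, while smooth muscle cells form contractile rings around arteries and arterioles. Fibroblasts of the pia and arachnoid, together with those along larger vessels, secrete collagens and small proteoglycans and carry transporters for organic ions and amino acids. In bulk tissue each of these genes is read against a large background of neurons and glia, and fewer cells of a type cannot be told apart from less RNA per cell.

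The libraries held 26855126 expected counts over genes in replicate 1 and 30060673 in replicate 2. Neuronal markers were abundant, with Snap25, a synaptic fusion protein, at 1227 TPM in replicate 1 and 1289 in replicate 2. Markers of 2 other tissues differed widely between the animals. The 10 choroid plexus markers summed to 758.9 TPM in replicate 1 and 9.71 TPM in replicate 2, and the only one without a read in an animal was Kcne2, at 0 counts in replicate 2. The 13 markers of striated muscle summed to 17.5 TPM in replicate 1 and 59.7 TPM in replicate 2, and none of them was at 0 in either animal.

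Vascular and meningeal genes were a small part of the cortical RNA, and 1 of them dominated. The 36 genes together held 24443 counts in replicate 1 and 27460 in replicate 2, or 0.099% and 0.1% of the library without ribosomal RNA. Ptgds, the prostaglandin D synthase secreted into the cerebrospinal fluid, took 45.3% of these counts in replicate 1 and 46.5% in replicate 2. In TPM, the length-normalised level used below to compare genes, its part was 79.4% in replicate 1 and 80.2% in replicate 2. Ptgds ranked 23 among 22028 protein-coding genes by mean TPM, and the next of the 36 genes, Vtn, ranked 3459. The median of the 36 was 3.76 TPM in replicate 1 and 4.05 in replicate 2.

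Of the 36 genes, 32 reached 1 TPM in both animals, or 88.9%, against 27.1% of all gene entries, and 8 reached 10 TPM in both. In the first quantification the order by mean TPM began with Ptgds, Vtn, Igfbp2, Fn1 and Rgs5. Each of these 5 stood apart there from the next lower gene in both animals. The second quantification did not keep all of this order. It gave Mgp 17.4 TPM in replicate 1 and 22.35 in replicate 2, above Rgs5 at 15.8 and 20.8 TPM. Col4a1, at 13.03 and 28.81 TPM, passed Fn1, at 21.02 and 27.78 TPM, in replicate 2 only. The ranges of Vtn and Igfbp2 overlapped, but Vtn was higher within each animal, at 31.39 against 27.44 and 44.97 against 33.67 TPM. TPM of that quantification was higher in replicate 2 for many genes, Snap25 at 1116 and 1675 among them, which widens such ranges. Below the first 5 genes neighbours mostly overlapped in the first quantification. Among the 35 neighbouring pairs, 24 had ranges over the 2 animals that overlapped, so the ranges did not resolve their order. Some of these pairs, such as Slc6a13 above Pdgfrb, kept the same order within each animal. Others, such as Col4a1 and Col4a2, did not. The least abundant genes were Tbx18, Des and Cnn1, with means of 0.965, 0.74 and 0.32 TPM.

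**Figure D1:**
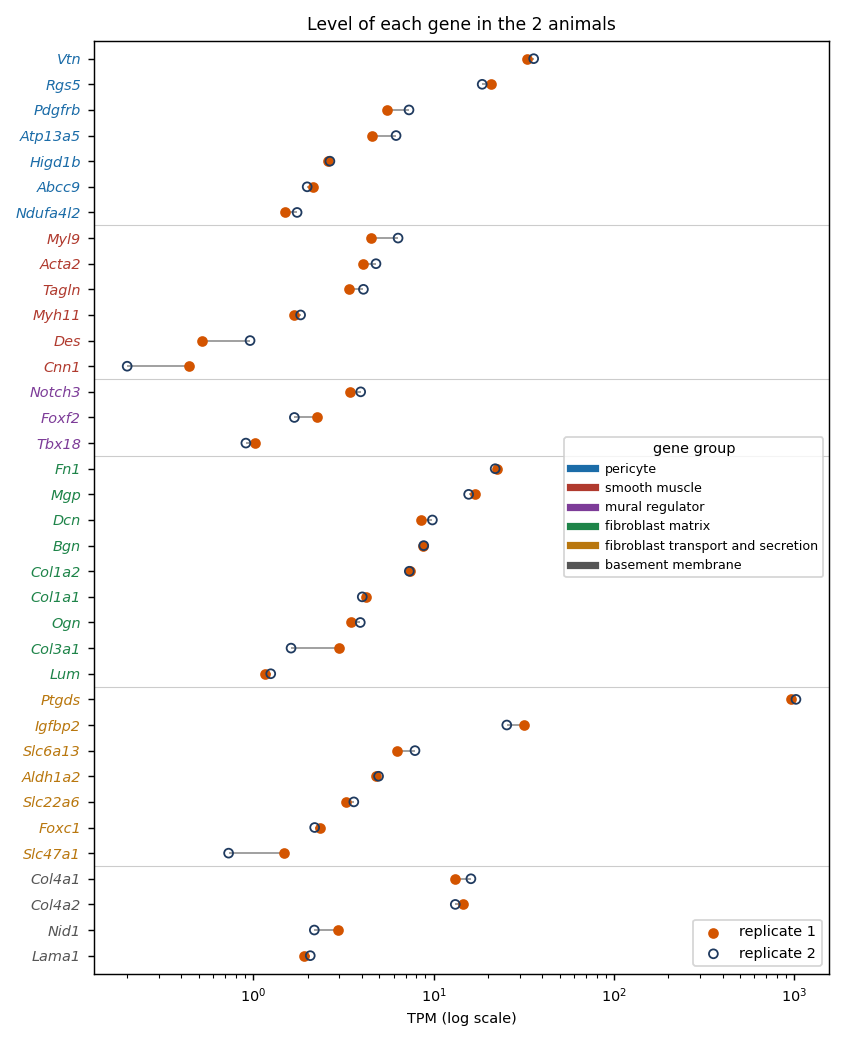
TPM of each gene on a log scale, filled for replicate 1 and open for replicate 2, with genes grouped by role and ordered within a group by mean. Ptgds lies near 1000 TPM, far to the right of Vtn and Igfbp2, most genes lie between 1 and 20 TPM, and the widest gaps between the animals are at Cnn1, Des, Slc47a1 and Col3a1.

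Pericyte genes were led by secreted and signalling proteins, not by the receptor that defines the cell. Vtn, the adhesive glycoprotein vitronectin, had 33 TPM in replicate 1 and 35.9 in replicate 2 (34.4 ± 2.01 TPM, SD, n = 2). Rgs5, which speeds the switching off of G proteins, had 20.7 TPM in replicate 1 and 18.6 in replicate 2. Pdgfrb, the receptor through which endothelial PDGF-B recruits pericytes (chromosome 18, 61045150 to 61085061, plus strand on mm10), had 5.49 TPM in replicate 1 and 7.3 in replicate 2. Pdgfrb was thus lower than Vtn and Rgs5 in each animal.

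The other 4 pericyte genes lay at or below 6.19 TPM in both animals. Atp13a5, a P5-type ATPase, had 4.56 TPM in replicate 1 and 6.19 in replicate 2, and Abcc9, the regulatory subunit of the ATP-sensitive potassium channel of vascular cells, had 2.14 TPM in replicate 1 and 1.99 in replicate 2. Higd1b, a member of the hypoxia-inducible HIG1 family, and Ndufa4l2, a relative of a respiratory chain subunit, rested on few reads. Higd1b had 22 counts in replicate 1 and 28 counts in replicate 2, and Ndufa4l2 had 22 counts in replicate 1 and 24 counts in replicate 2. Their relatives used by most cells were far higher, with Higd1a at 41.9 and 41.6 TPM and Ndufa4 at 305 and 316 TPM in replicates 1 and 2.

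The 2 animals differed in the pericyte genes beyond counting error, in both directions. Pdgfrb had 513 counts in replicate 1 and 742 counts in replicate 2. After scaling for library size its level in replicate 1 was 0.777 times that in replicate 2, with a 95% interval of 0.692 to 0.87. All such intervals cover counting error only and compare these 2 libraries. Over all 14170 genes with a mean of 50 normalised counts or more, 18.0% had an interval above and 15.4% an interval below equal levels, so such a call is common. Atp13a5 was also lower in replicate 1, at 0.838 times replicate 2 (interval 0.722 to 0.969). With libraries scaled by spike-in totals the interval of Atp13a5, but not that of Pdgfrb, held equal levels. Rgs5 was higher in replicate 1, at 1.1 times replicate 2 (interval 1.02 to 1.18). The intervals of Vtn, Abcc9, Higd1b and Ndufa4l2 held equal levels.

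The 10 further pericyte genes had a median of 2.70 TPM in replicate 1 and 2.86 TPM in replicate 2, and 9 of 10 reached 1 TPM in both animals. Intervals left out equal levels for 2 higher and 3 lower in replicate 1. In this and the other further lists the minimum was a mean of 10 counts, at which the shares over all genes were 15.6% higher and 14.3% lower. The highest was Zic1, a zinc-finger transcription factor also found in some neurons, at 11.4 TPM in replicate 1 and 9.72 in replicate 2. Its counts went the other way, 416 in replicate 1 and 630 in replicate 2, a scaled ratio of 0.742 (interval 0.654 to 0.841). The proteoglycan gene Cspg4, which oligodendrocyte precursors share, had 7.53 TPM in replicate 1 and 6.54 in replicate 2, a count ratio of 1.13 (interval 1.02 to 1.25). The adhesion molecule gene Mcam had 5.59 TPM in replicate 1 and 6.1 in replicate 2. In counts Mcam differed more, with 183 in replicate 1 and 318 in replicate 2, a ratio of 0.649 (interval 0.536 to 0.778). In the PDGF pathway list of 5 genes, intervals left out equal levels for 2 higher and 1 lower in replicate 1. Pdgfb, the endothelial ligand, had 15 TPM in replicate 1 and 12.5 in replicate 2 and Pdgfa, a ligand made by many cells, had 24.6 TPM in replicate 1 and 19.9 in replicate 2, both above the receptor Pdgfrb. Pdgfra, the related receptor of oligodendrocyte precursors and fibroblasts, had 14.1 TPM in replicate 1 and 18.3 in replicate 2, also above Pdgfrb in each animal. The 3 other channel genes all had ratios below 1 in replicate 1, and 2 of the intervals left out equal levels. The pore subunit of Abcc9 channels, Kcnj8, was low at 0.79 TPM in replicate 1 and 1.14 in replicate 2. The neuronal pair Abcc8 and Kcnj11 was higher, Abcc8 at 13.7 and 15.3 TPM and Kcnj11 at 15.7 and 19 TPM in replicates 1 and 2.

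Smooth muscle genes held the fewest reads of the 6 groups of these genes, and of the 5 with a mean of 10 counts or more, 4 had a ratio below 1 in replicate 1. Myl9, the regulatory light chain of smooth muscle myosin (chromosome 2, 156775420 to 156781658, plus strand), had 4.48 TPM in replicate 1 and 6.35 in replicate 2. Acta2, the smooth muscle actin that defines arterial walls (chromosome 19, 34241090 to 34255590, minus strand), had 4.04 TPM in replicate 1 and 4.79 in replicate 2, and the actin-binding protein gene Tagln had 3.38 TPM in replicate 1 and 4.08 in replicate 2. Myh11, the smooth muscle myosin heavy chain, had 1.68 TPM in replicate 1 and 1.83 in replicate 2. All 4 lay below the pericyte gene Rgs5 in both animals.

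Des and Cnn1 had few reads, and Cnn1 was close to the limit of what these libraries count. Des, the intermediate filament desmin, had 27 counts in replicate 1 and 54 counts in replicate 2, and Cnn1, the calponin of contractile smooth muscle, had 7 counts in replicate 1 and 4 counts in replicate 2. Both stayed below 1 TPM, and the interval of Cnn1 ran from 0.5 to 9.15. A count of 0 would have allowed up to 3 counts, or 0.1215 and 0.1093 CPM in replicates 1 and 2.

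The promoter of Myl9 is shown because it was the only one of the matched promoters with an exact CArG box, the element bound by serum response factor in many smooth muscle genes. It spans chr2:156775214-156775513 on the plus strand (RefSeq, GRCm38.p6), from 250 bases before the start to 50 after it, and the capitals mark the CArG box.
Myl9: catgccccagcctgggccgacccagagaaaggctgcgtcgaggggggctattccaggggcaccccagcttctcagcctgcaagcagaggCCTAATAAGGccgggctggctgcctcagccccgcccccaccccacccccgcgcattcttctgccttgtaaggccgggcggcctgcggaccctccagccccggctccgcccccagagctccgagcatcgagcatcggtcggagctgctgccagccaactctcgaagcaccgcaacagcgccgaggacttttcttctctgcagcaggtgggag
The box began 161 bases before the start. An exact CArG box stood in 535 of the 32851 promoter entries of that length, or 1.63%, and in 1 of 27 entries of these genes. The windows of Acta2, Cnn1 and Des held no exact match in these 300 bases. Windows were matched for 24 of the 36 genes, and none is described here for Tagln and Myh11.

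Between the animals Myl9 and Acta2 differed beyond counting error. Myl9 had 81 counts in replicate 1 and 125 counts in replicate 2, and its scaled ratio of replicate 1 over replicate 2 was 0.732 (interval 0.543 to 0.97). Acta2 had 111 counts in replicate 1 and 163 counts in replicate 2, a ratio of 0.768 (interval 0.595 to 0.979). Des was lower in replicate 1 as well, with a ratio of 0.578 (interval 0.34 to 0.907), but fell short of the 50 normalised counts set for a call. Tagln had a ratio of 0.727 and Myh11 one of 1.01, and both intervals held equal levels. Summed over the 6 genes there were 466 counts in replicate 1 and 635 in replicate 2, a ratio of 0.824 (interval 0.730 to 0.930). With spike-in totals the intervals of both Myl9 and Acta2 held equal levels. The median log2 ratio of the 5 genes with a mean of 10 counts or more was -0.45, beside -0.007 over all 18212 genes with that many.

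Striated muscle markers were also lower in replicate 1, by interval for 12 of 13, with a median log2 ratio of -1.77. Their most abundant, the skeletal actin gene Acta1, had 5.24 TPM in replicate 1 and 11.4 in replicate 2, which put it above Acta2 in both animals. Whether RNA of striated muscle had a part in the smooth muscle values was not tested. Desmin is also a protein of striated muscle. The 12 further smooth muscle genes had a median near 0. Their median log2 ratio was -0.035 over the 10 with enough reads, of which 4 had a ratio above and 6 below 1, with intervals that left out equal levels for 2 in each direction. They were led by Tpm1, a tropomyosin also used outside muscle, at 93.5 TPM in replicate 1 and 100.9 in replicate 2, Cald1, caldesmon, at 10.2 TPM in replicate 1 and 8.67 in replicate 2, and Mylk, myosin light chain kinase, at 7.31 TPM in replicate 1 and 7.97 in replicate 2. The lowest was Kcnmb1, a potassium channel subunit, at 0.19 TPM in replicate 1 and 0.22 in replicate 2.

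Smooth muscle actin, light chain and myosin were low beside their cytoplasmic forms, while Tagln was closer to its relative Tagln2. Actb, the main cytoplasmic actin, had 1059 and 1173 TPM in replicates 1 and 2 and Actg1 had 539 and 609.5 TPM, while Actg2, the smooth muscle actin of the gut, was listed at 0 TPM in both. The cytoplasmic light chain gene Myl12b had 128 and 142 TPM, above Myl9, and the neuronal Tagln3 had 134 and 129.8 TPM, above Tagln. Tagln2 had 7.56 and 4.42 TPM in replicates 1 and 2, nearer to Tagln at 3.38 and 4.08 TPM. Much of the TPM of Tagln rested on few reads. Its 369-base transcript Tagln-202 held 53.4% and 40.6% of it from 8.54 and 8.53 counts in replicates 1 and 2. Non-muscle myosin Myh10 had 103 and 111 TPM and Myh9 had 36.6 and 30.3 TPM, both above Myh11. The posterior SD of the count, above 0 where reads are shared between genes, was 0 for all 6 smooth muscle genes. It was 26.6 counts in replicate 1 and 33.4 in replicate 2 for Myl12b, which has close copies.

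**Figure D2:**
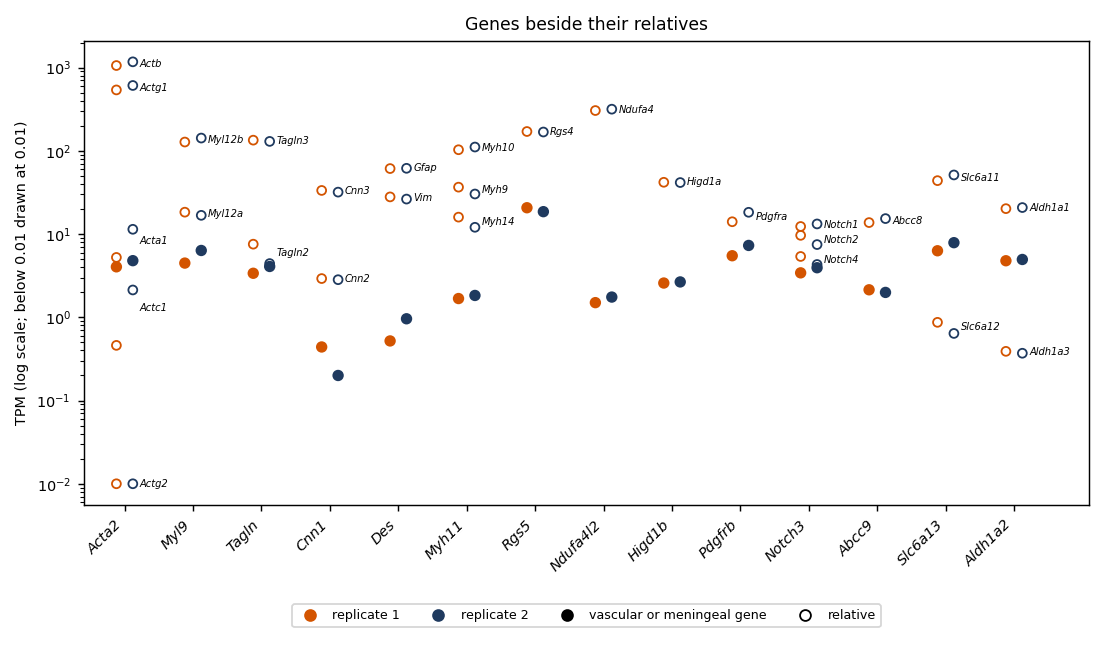
TPM of selected genes (filled) and their relatives of the same family (open) on a log scale, replicate 1 left of replicate 2 for each gene, with values under 0.01 drawn at 0.01. Actb, Myl12b, Tagln3, Cnn3, Myh10 and Ndufa4 lie well above their vascular relatives in both animals, and Actg2 lies at the bottom.

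The 3 regulators of mural cells were low in level, and Notch3 held most of their reads. Notch3, the Notch receptor of smooth muscle and pericytes, which is mutated in the human small vessel disease CADASIL, had 3.42 TPM in replicate 1 and 3.94 in replicate 2. Foxf2, a forkhead factor of brain pericytes and the blood-brain barrier in mouse, had 2.26 TPM in replicate 1 and 1.69 in replicate 2. Tbx18, a T-box factor of mural cells, had 1.02 TPM in replicate 1 and 0.91 in replicate 2. Notch3 was highest of the 3 in both animals.

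Notch3 and Foxf2 differed between the animals in opposite directions. Notch3 had 464 counts in replicate 1 and 597 counts in replicate 2, a scaled ratio of 0.873 (interval 0.771 to 0.987). With libraries scaled by spike-in totals the interval of Notch3 held equal levels. Foxf2 had 90 counts in replicate 1 and 73 counts in replicate 2, a ratio of 1.37 whose interval of 1.01 to 1.91 only just left out equal levels. The annotated antisense gene Gm17276 overlaps Notch3 over 21024 bases and had 59 counts in replicate 1 and 90 in replicate 2. The sources used here do not say whether counting used the strand. The posterior SD of the Notch3 count, above 0 where reads are shared between genes, was 0 in both animals. Whether the overlap had a part in the reads of Notch3 was not tested.

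In the first quantification Notch3 was the lowest of the 4 Notch receptors in both animals. Notch1 had 12.3 and 13.2 TPM, Notch2 had 9.65 and 7.48 TPM and Notch4, an endothelial receptor, had 5.38 and 4.31 TPM in replicates 1 and 2. The order of Notch3 and Notch4 depended on the method. The second quantification put Notch4 below Notch3, at 2.73 and 4.425 TPM against 3.03 and 4.66 TPM in replicates 1 and 2. In the Notch pathway list all 13 genes reached 1 TPM in both animals, with a median log2 ratio of -0.047, and intervals left out equal levels for 2 higher and 2 lower in replicate 1. Its leading genes were the target Hey1 at 24.7 TPM in replicate 1 and 25.3 in replicate 2, the ligand Jag2 at 22.1 TPM in replicate 1 and 22.1 in replicate 2 and Rbpj, the DNA-binding partner of the receptors, at 10.9 TPM in replicate 1 and 15.5 in replicate 2. The arterial ligand Dll4 was lowest at 1.17 TPM in replicate 1 and 1.5 in replicate 2.

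None of the matrix genes of fibroblasts differed between the animals beyond counting error. All 9 reached 1 TPM in both, their median was 7.39 TPM in replicate 1 and 7.33 TPM in replicate 2. Fn1, fibronectin, was highest with 22.4 TPM in replicate 1 and 21.9 in replicate 2. Mgp, an inhibitor of calcification in vessel walls, had 16.9 TPM in replicate 1 and 15.6 in replicate 2.

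The small leucine-rich proteoglycans, which bind and space collagen fibrils, covered a range of levels. Dcn, decorin, had 8.51 TPM in replicate 1 and 9.84 in replicate 2, and Bgn, biglycan, had 8.77 TPM in replicate 1 and 8.81 in replicate 2. Ogn, osteoglycin, had 3.48 TPM in replicate 1 and 3.92 in replicate 2, and Lum, lumican, was the lowest matrix gene with 1.16 TPM in replicate 1 and 1.25 in replicate 2. Dcn and Lum are neighbours on chromosome 10, 46984 bases apart, and Dcn was several times higher in both animals.

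The fibrillar collagens kept an unequal ratio of chains. Type I collagen is built of 2 chains from Col1a1 and 1 from Col1a2, and Col1a2 was the higher of the pair in TPM. Col1a2 had 7.39 TPM in replicate 1 and 7.33 in replicate 2, and Col1a1 had 4.21 TPM in replicate 1 and 4.02 in replicate 2. In the second quantification the interval of Col1a1, 1.03 to 1.34, left out equal levels. The ratio of Col1a2 over Col1a1 in TPM was 1.76 in replicate 1 and 1.82 in replicate 2. Col3a1, the type III chain, had 2.99 TPM in replicate 1 and 1.62 in replicate 2 but nearly equal reads, with 129 counts in replicate 1 and 134 counts in replicate 2.

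Among 14 further fibroblast genes 12 reached 1 TPM in both animals, and their median log2 ratio was 0.15, with 8 ratios above and 6 below 1. Intervals left out equal levels for 5 higher and 2 lower in replicate 1. Col6a1, a chain of microfibrillar type VI collagen, led with 19.1 TPM in replicate 1 and 22.4 in replicate 2, followed by Fmod, fibromodulin, at 8.09 TPM in replicate 1 and 10.2 in replicate 2 and Pcolce, an enhancer of collagen processing, at 7.23 TPM in replicate 1 and 6.41 in replicate 2. The lowest was Col5a2 at 0.87 TPM in replicate 1 and 0.91 in replicate 2. Col8a1, a short-chain collagen, was the 1 gene of this list with a 2-fold difference. It had 141 counts in replicate 1 and 65 counts in replicate 2, a log2 ratio of 1.26.

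Genes of transport and secretion spanned the widest range of any group. Ptgds (chromosome 2, 25466709 to 25470046, minus strand) had 958 TPM in replicate 1 and 1019.6 in replicate 2 (989 ± 43.4 TPM, SD, n = 2) from 11067 counts in replicate 1 and 12765 counts in replicate 2. It is also made by oligodendrocytes, whose 10 markers had a median of 65.8 TPM in replicate 1 and 75.6 TPM in replicate 2. How much of Ptgds came from meninges and how much from oligodendrocytes cannot be told apart in bulk tissue. Igfbp2, a carrier of insulin-like growth factors also made by astrocytes and choroid plexus, had 31.6 TPM in replicate 1 and 25.4 in replicate 2.

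The remaining 5 genes of the group lay between 0.73 and 7.88 TPM. Slc6a13, a GABA and taurine transporter of the leptomeninges, had 6.3 TPM in replicate 1 and 7.88 in replicate 2. Aldh1a2, which makes retinoic acid in the meninges, had 4.78 TPM in replicate 1 and 4.95 in replicate 2, and its relative Aldh1a1 had 20.2 and 20.8 TPM in replicates 1 and 2. Slc22a6, an organic anion transporter, had 3.25 TPM in replicate 1 and 3.61 in replicate 2. Foxc1, a forkhead factor needed for meningeal development in mouse, had 2.35 TPM in replicate 1 and 2.19 in replicate 2. Slc47a1, an exporter of organic cations, had 1.48 TPM in replicate 1 and 0.73 in replicate 2.

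Slc47a1 showed the widest difference between the animals of the 32 genes with a mean of 50 normalised counts or more. It had 67 counts in replicate 1 and 37 counts in replicate 2, and its scaled ratio was 1.98 (interval 1.34 to 3.13), just short of 2-fold. Igfbp2 was also higher in replicate 1, with 633 counts in replicate 1 and 574 counts in replicate 2 and a ratio of 1.24 (interval 1.1 to 1.39). Slc6a13 went the other way, with 216 counts in replicate 1 and 314 counts in replicate 2 and a ratio of 0.774 (interval 0.647 to 0.922). Ptgds had a ratio of 0.974, and its narrow interval of 0.949 to 0.999 left out equal levels by a small margin. The call depended on the setting. The log2 ratio of Ptgds was -0.039 as reported, -0.034 with DESeq2 size factors, 0.0 in the second quantification and 0.033 with spike-in totals, and the interval held equal levels in each of these 3 alternatives. Choroid plexus markers were higher in replicate 1 for 10 of 10 genes, with a median log2 ratio of 4.45. Their part in the values of Slc47a1 and Igfbp2 was not tested.

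The 11 other genes of the leptomeninges and arachnoid had a median of 1.23 TPM in both animals and a median log2 ratio of 0.001. Intervals left out equal levels for 0 higher and 2 lower in replicate 1. Slc13a3, a dicarboxylate transporter, led with 7.49 TPM in replicate 1 and 8.37 in replicate 2. Slc22a8, an organic anion transporter beside Slc22a6 on chromosome 19, had 4.46 TPM in replicate 1 and 7.3 in replicate 2, and the gap junction gene Gjb2 had 5.77 TPM in replicate 1 and 5.21 in replicate 2. The lowest was Tbx15 at 0.44 TPM in replicate 1 and 0.33 in replicate 2. Slc22a2, an organic cation transporter, had 11 counts in replicate 1 and 31 counts in replicate 2, a log2 ratio of -1.20 that rests on few reads.

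All 4 basement membrane genes had count ratios above 1, and the collagen IV pair differed beyond counting error. Col4a1 and Col4a2 encode the chains that form the collagen IV network around vessels, and endothelial cells make them as well. Col4a1 (chromosome 8, 11198423 to 11312826, minus strand) had 1066 counts in replicate 1 and 1035 counts in replicate 2, a scaled ratio of 1.16 (interval 1.06 to 1.26). Col4a2 (chromosome 8, 11312805 to 11449287, plus strand) had 1626 counts in replicate 1 and 1602 counts in replicate 2, a ratio of 1.14 (interval 1.06 to 1.22). Both chains thus had more reads in replicate 1.

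The genes are transcribed from opposite strands of a common start region, where their annotated ends overlap by 22 bases. Both promoters are shown because this layout is shared by the collagen IV pair (RefSeq, GRCm38.p6, chr8:11312777-11313076 on the minus strand for Col4a1 and chr8:11312555-11312854 on the plus strand for Col4a2). Capitals mark the 78 bases common to both windows, which read as reverse complements.
Col4a1: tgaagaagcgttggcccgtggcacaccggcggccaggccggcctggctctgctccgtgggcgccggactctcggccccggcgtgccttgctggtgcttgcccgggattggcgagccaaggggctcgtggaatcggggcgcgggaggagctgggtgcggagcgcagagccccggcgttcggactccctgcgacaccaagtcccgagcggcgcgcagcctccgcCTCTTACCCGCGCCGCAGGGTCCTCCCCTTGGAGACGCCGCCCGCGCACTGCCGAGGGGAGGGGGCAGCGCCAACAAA
Col4a2: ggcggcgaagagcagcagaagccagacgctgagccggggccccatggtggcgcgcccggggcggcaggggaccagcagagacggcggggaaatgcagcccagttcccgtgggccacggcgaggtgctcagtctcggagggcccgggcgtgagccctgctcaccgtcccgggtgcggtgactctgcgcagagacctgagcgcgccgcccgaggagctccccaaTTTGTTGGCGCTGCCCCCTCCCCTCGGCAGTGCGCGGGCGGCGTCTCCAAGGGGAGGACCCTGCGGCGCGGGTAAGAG
Each window also held 1 CCAAT element read on either strand.

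In TPM the collagen IV pair went in opposite directions. Col4a1 had 13.1 TPM in replicate 1 and 16.1 in replicate 2, while Col4a2 had 14.6 TPM in replicate 1 and 13.2 in replicate 2, so that Col4a1 over Col4a2 was 0.902 in replicate 1 and 1.22 in replicate 2. Nid1, nidogen, which links collagen IV to laminin, had 2.96 TPM in replicate 1 and 2.18 in replicate 2 from 228 counts in replicate 1 and 247 counts in replicate 2. Lama1, a laminin chain of the pial basement membrane, had 1.9 TPM in replicate 1 and 2.07 in replicate 2, below its vascular relatives Lama2 at 5.4 and 5.35 TPM and Lama4 at 3.74 and 4.41 TPM.

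The 20 further basement membrane genes had a median log2 ratio of -0.037, with 8 ratios above and 12 below 1. Intervals left out equal levels for 2 higher and 3 lower in replicate 1. Sparc, a collagen-binding protein also made by glia, had 101.6 TPM in replicate 1 and 107 in replicate 2, Agrn, agrin, had 50.3 TPM in replicate 1 and 54 in replicate 2, and the laminin chain gene Lamb2 had 13.5 TPM in replicate 1 and 12.9 in replicate 2. Col4a6 was lowest at 0.37 TPM in replicate 1 and 0.47 in replicate 2.

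Across the whole set, genes differed between the animals about as often as genes at large. Of the 36 genes, 32 had a mean of 50 normalised counts or more, and Higd1b, Ndufa4l2, Cnn1 and Des did not. None of the 32 differed 2-fold, against 0.861% of 14170 genes with that many counts. The count became 1, Slc47a1, when libraries were scaled by spike-in totals or the prior count was lowered to 0.5. Counting intervals left out equal levels with a higher value in replicate 1 for 6 of 32 genes, or 18.8%, against 18.0% of all genes. These were Rgs5, Foxf2, Igfbp2, Slc47a1, Col4a1 and Col4a2. The interval lay lower in replicate 1 for 7 of 32, or 21.9%, against 15.4% of all genes, namely Pdgfrb, Atp13a5, Acta2, Myl9, Notch3, Ptgds and Slc6a13. Scaling by spike-in totals moved the median log2 ratio of all genes from -0.007 to 0.064, and with it 8 were higher and 2 lower, against 32.6% and 7.18% of all genes. The 2 that stayed lower were Pdgfrb and Slc6a13, and Fn1 and Col1a1 joined the higher ones.

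**Figure D3:**
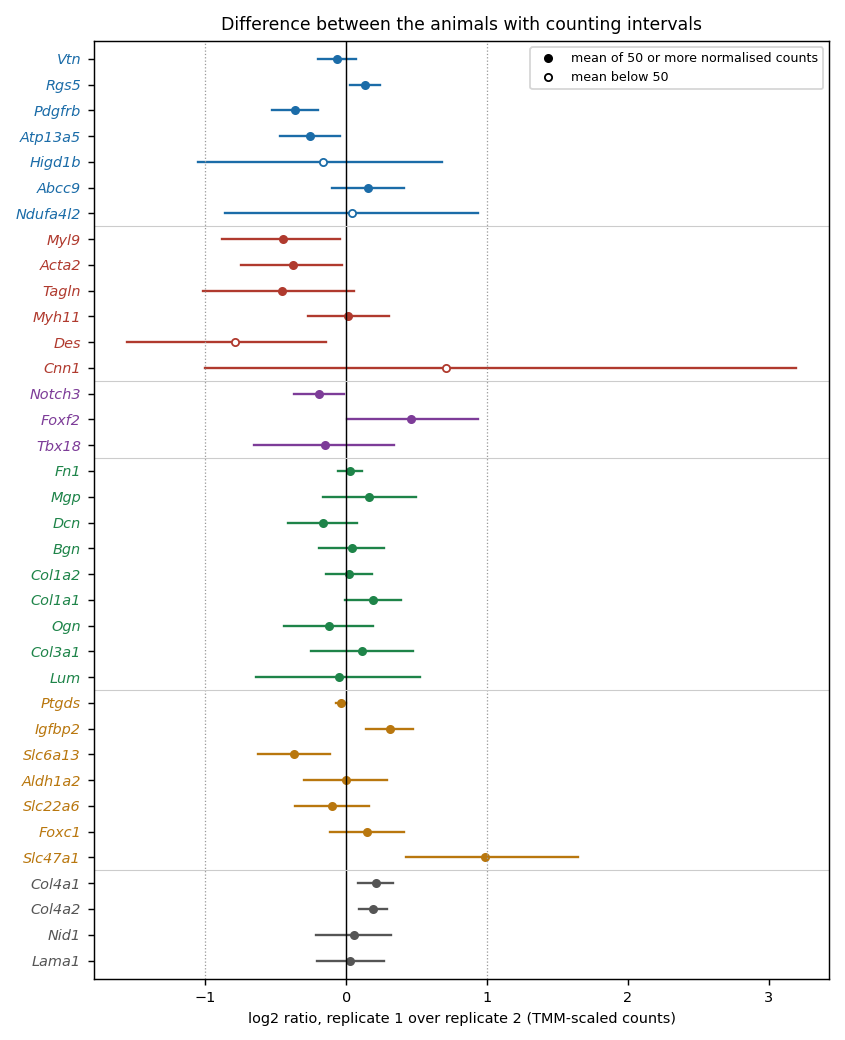
Log2 ratio of replicate 1 over replicate 2 for each gene on scaled counts, with exact 95% counting intervals, filled where the mean was 50 normalised counts or more; dotted lines mark a 2-fold difference. Slc47a1 reaches close to the right dotted line, Myl9, Acta2, Pdgfrb and Slc6a13 lie left of 0, and Cnn1, Des, Higd1b and Ndufa4l2 have the widest intervals.

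By group the median log2 ratio was -0.064 for pericyte, -0.45 for smooth muscle and -0.15 for mural regulator genes. It was 0.026 for fibroblast matrix, -0.004 for transport and secretion and 0.12 for basement membrane genes, and 0.016 over all 35 genes with a mean of 10 counts or more. The pericyte median turned to 0.007 with spike-in totals and the mural regulator median to 0.028 in the second quantification, while the smooth muscle median stayed below 0 under each scaling. The 15 endothelial genes, the neighbours of mural cells in the vessel wall, had a median log2 ratio of 0.095, with 8 ratios above and 7 below 1. Their median level was 9.41 TPM in replicate 1 and 9.40 TPM in replicate 2, above the medians of 4.56 TPM in replicate 1 and 6.19 TPM in replicate 2 for pericyte genes. Border macrophage markers, the immune cells that share the meninges, had a median log2 ratio of -0.22 over only 4 genes with enough reads.

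**Figure D4:**
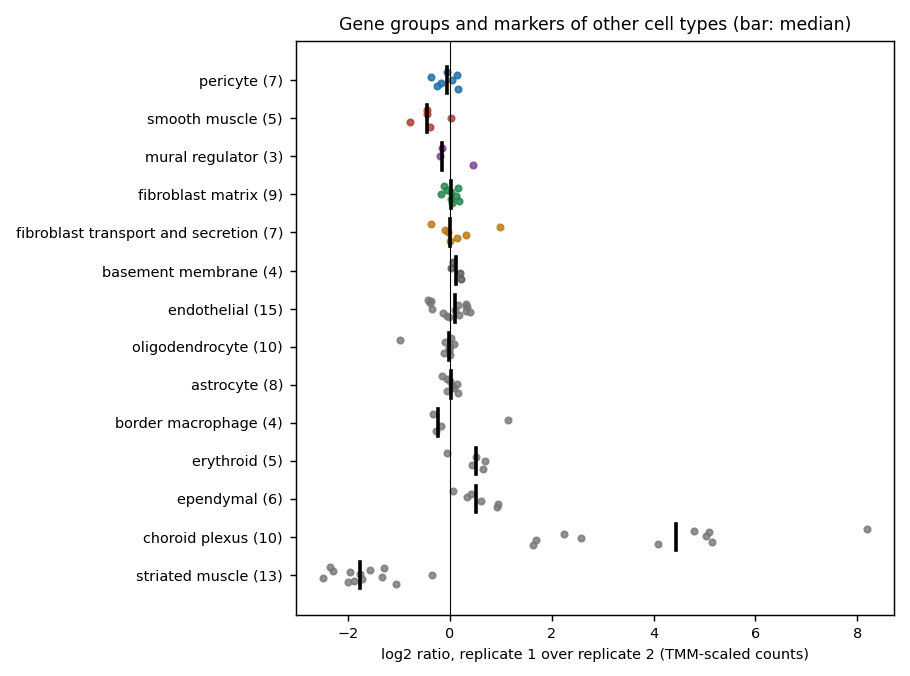
Log2 ratios of replicate 1 over replicate 2 for the gene groups (colour) and for markers of other cell types (grey), 1 point per gene with a mean of 10 counts or more, number of genes in brackets, black bar for the median. Smooth muscle has its median at -0.45, striated muscle at -1.77 and choroid plexus at 4.45, and the other vascular and meningeal groups lie within 0.15 of 0.

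For a few genes TPM and counts gave different ratios of the animals, with short transcripts holding much of the TPM. For 4 of 32 genes, or 12.5%, the ratio of the animals in TPM and in counts lay apart by 1.25-fold or more beyond the median shift of all genes, against 4.95% of all genes. These were Tbx18, Col3a1, Col4a1 and Nid1. For Col3a1 the log2 ratio was 0.88 in TPM and 0.11 in counts. Its retained intron transcript Col3a1-207, 431 bases long, held 9.01 counts in replicate 1 and 0 counts in replicate 2, yet made up 51.7% in replicate 1 and 0% in replicate 2 of the gene's TPM. The full-length Col3a1-201 held 117 counts in replicate 1 and 130.2 counts in replicate 2. In replicate 1 the 9.01 counts on the short transcript thus weighed more in TPM than the 117 counts on the coding one.

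Nid1 and Tbx18 had the same feature. The retained intron transcript Nid1-203 held 8.41 counts in replicate 1 and 0 counts in replicate 2 and 29.6% in replicate 1 and 0% in replicate 2 of the TPM of Nid1. The short Tbx18-202 held 1.37 counts in replicate 1 and 0 counts in replicate 2 and 23.6% in replicate 1 and 0% in replicate 2 of that of Tbx18. The second quantification, made from the reads themselves, gave Nid1-203 29.7% in replicate 1 and 0% in replicate 2 and gave Tbx18-202 0% in both. The estimate for Tbx18-202 therefore differed between the methods, and that for Nid1-203 hardly did.

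For Col4a1 the animals had different leading transcripts. Col4a1-208, annotated as a target of nonsense-mediated decay, made up 46.7% in replicate 1 and 22.4% in replicate 2 of the gene's TPM. The 545-base coding fragment Col4a1-203 made up 16.6% in replicate 1 and 36.6% in replicate 2 from 17.1 counts in replicate 1 and 50.2 counts in replicate 2. The full-length coding Col4a1-201 made up 22.8% in replicate 1 and 24.7% in replicate 2, and in the second quantification 38.3% in replicate 1 and 12.7% in replicate 2. The full-length share thus did not settle between methods. Col4a2 was assigned wholly to Col4a2-201 in both animals in the first quantification, and in the second Col4a2-201 made up 95.7% in replicate 1 and 89% in replicate 2.

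The split of Ptgds into transcripts depended on the quantification. In the first quantification Ptgds-204, annotated as a processed transcript, made up 34.9% in replicate 1 and 36.2% in replicate 2, Ptgds-202 36% in replicate 1 and 32.6% in replicate 2 and Ptgds-203 27.1% in replicate 1 and 29.3% in replicate 2. Ptgds-201, the first coding transcript of the annotation, made up 0.89% in replicate 1 and 0.52% in replicate 2. The second quantification gave Ptgds-201 76.8% in replicate 1 and 73.6% in replicate 2 and Ptgds-204 0% in both. The 2 methods assigned the same gene to different transcripts in both animals.

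Of the 30 genes with several transcripts, the leading one was the same in both animals for 23 and the same in both quantifications for 26. It differed between animals for Higd1b, Tagln, Cnn1, Col3a1, Fn1, Ptgds and Col4a1. Fn1, whose exons are spliced in alternative ways, was spread over many forms, with Fn1-217 at 22.9% in replicate 1 and 22.3% in replicate 2 and Fn1-208 at 16.5% in replicate 1 and 27.9% in replicate 2. A protein-coding transcript led with 50% or more of the TPM for 31 of the 36 genes. Acta2-201, Pdgfrb-201, Myh11-201 and Notch3-201 were among these. In the second quantification Acta2-201 made up less, 48.7% in replicate 1, where Acta2-202 led with 51.3%, and 51.95% in replicate 2.

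**Figure D5:**
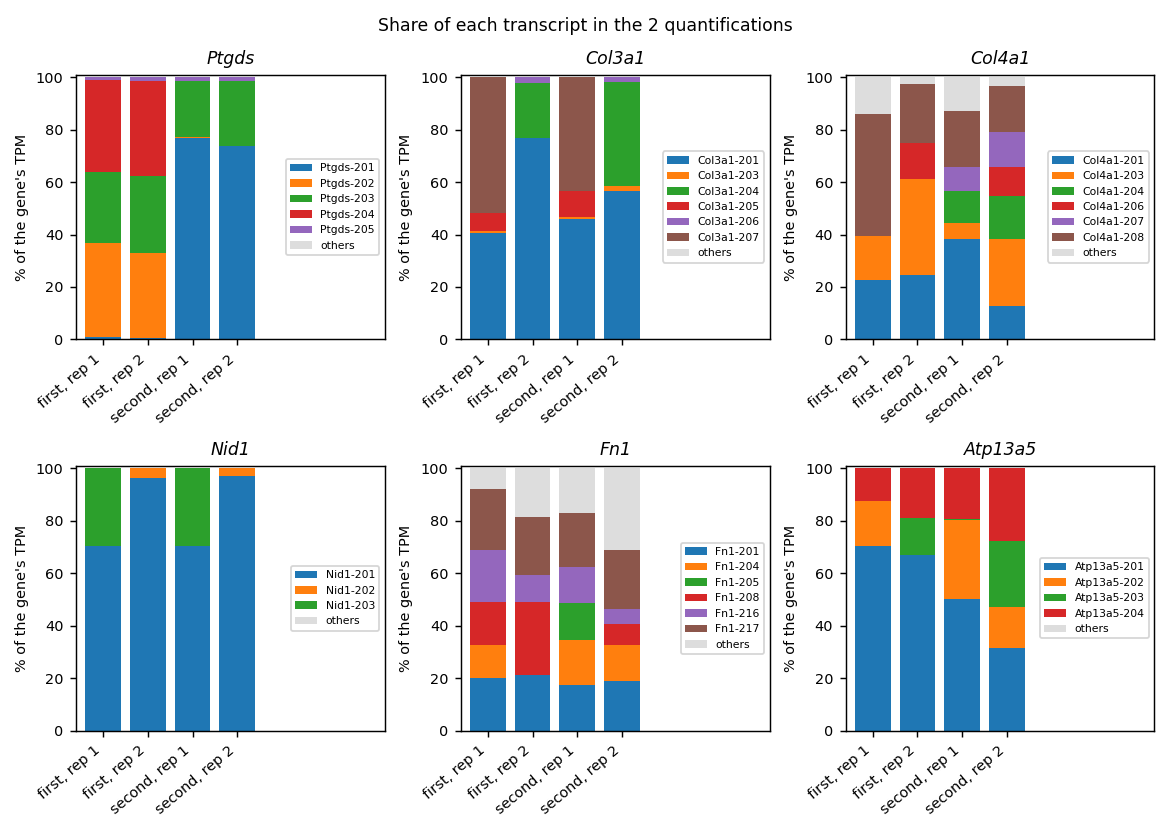
Share of each gene's TPM held by its transcripts for 6 genes, in the first and second quantification, replicate 1 left of replicate 2 in each, with minor transcripts in light grey. The retained intron Col3a1-207 and Nid1-203 appear in replicate 1 alone in both quantifications, and the leading Ptgds transcript changes with the quantification.

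Position and promoter sequence were compared next, and few of the genes lie close together. Foxf2 and Foxc1 lie 175229 bases apart on chromosome 13, in addition to the Dcn and Lum and the Col4a1 and Col4a2 pairs. Of the 36 genes, 17 overlap another annotated gene, and for 5 that gene had a mean of 20 counts or more. These were Ndufa4l2, Tagln, Notch3, Col4a1 and Col4a2. Tagln overlaps Pcsk7 over 108 bases and the antisense gene Gm48529 over 3627 bases. Gm48529 had 43 counts in replicate 1 and 31 in replicate 2. The posterior SD of the Tagln count was 0 in both animals, and whether the overlaps had a part in its few reads was not tested.

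Promoter windows were matched for 24 of the 36 genes, with 27 entries. The CCAAT element, searched as CCAAT on both strands, stood in 13 of 27 entries, or 48.1%, against 37.4% of all 32851. TATAAA, searched on both strands, stood in 3 of 27, or 11.1%, against 13.6% of all. The 3 were the windows of Col3a1, Vtn and Ogn, 117, 135 and 227 bases before the start. In Vtn and Ogn a match on the other strand overlapped it. A match describes the letters of the window only.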

How the data were processed

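Total RNA of 2 cortex libraries was quantified on mm10 with GENCODE M21, per the notes deposited with the files. Per the file headers, the authors deposited expected counts, TPM and FPKM per gene and per transcript, each transcript's percent of its gene, and a posterior SD of each count, above 0 where reads are shared between genes. A second deposited transcript table gives estimated counts and TPM made from the reads directly, from 2 read files for replicate 1 and 1 for replicate 2. The programs, and whether strand was used in counting, are not given in the sources used. Reads of the Cast allele were assigned against mm10, and alleles were summed.

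The 36 genes were matched by symbol and joined by gene ID. Expected counts were rounded. Library sizes without 356 ribosomal RNA genes and the spike-ins were 24688669 in replicate 1 and 27440152 in replicate 2. Ratios are replicate 1 over replicate 2 on counts scaled by TMM (edgeR 4.0.16) with a prior count of 2 for log2 values. Exact 95% binomial intervals (Clopper-Pearson, conditional on the sum) cover counting error only. A difference was called at 2-fold, or where the interval left out equal levels, for genes with a mean of 50 normalised counts or more. List medians used a mean of 10 or more. Calculations were tested on simulated data. Alternatives were DESeq2 1.42.0 size factors, spike-in totals, the second quantification, FPKM, other minima and prior counts, and each animal alone.

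Genes and lists were chosen with earlier results of these data known. All 36 genes are named. Genes named from a further list are among its 3 highest by mean TPM, its lowest or those that differ 2-fold, not all of which are named, and relatives stand beside their gene. Promoters came from RefSeq (GRCm38.p6). Computations ran in R 4.3.3 and in Python 3.11.15 with scipy 1.17.1, pandas 2.3.3 and numpy 2.4.6.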

Additional observations from a re-analysis of the deposited data

How the results depend on the processing

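The median level of the 36 genes was 3.905 TPM and 2.515 in FPKM, a unit with another denominator, and lay between 3.76 and 4.05 TPM with each animal alone. The count of genes with a 2-fold difference, 0 in the reported setting, became 1 with spike-in totals and 1 with a prior count of 0.5, through Slc47a1 each time. The log2 ratio of Ptgds, -0.039, turned to 0.033 with spike-in totals and was 0.0 in the second quantification, and its interval held equal levels with these and with DESeq2 size factors. The cause was not tested. Between 32 and 34 genes reached 1 TPM with each animal alone, and between 30 and 33 had a protein-coding transcript with 50% or more of the TPM. Of 108 alternative log2 ratios of single genes, 106 moved by no more than the half-width of their counting interval without a called ratio changing sign. Of 49 alternative medians of the 6 groups and the whole set, 5 took the other sign. The smooth muscle median stayed below 0 in each, from -0.456 to -0.214. No paired analysis was possible because the 2 animals form 1 group. With 2 animals and 7 or 4 counts, Cnn1 could not be placed above or below equal levels.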

Other observations

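Scaled for library size, genes that process collagen were above replicate 2 in replicate 1 more often than below. Of 16 such genes 15 had a mean of 10 counts or more, with 10 log2 ratios above and 5 below 0 and a median of 0.19, beside -0.007 over all genes. Intervals left out equal levels for 7 higher and 0 lower in replicate 1, against 15.6% higher and 14.3% lower over all genes with a mean of 10 counts. Pcolce, among the higher ones, is also in the list of further fibroblast genes. P4ha1, a catalytic subunit of prolyl 4-hydroxylase, had 1317 counts in replicate 1 and 885 in replicate 2, or 25.7 TPM and 15.9 TPM. Its scaled log2 ratio was 0.74. P4hb, the enzyme's other subunit and a general folding enzyme, had 51.0 TPM in replicate 1 and 57.6 in replicate 2. Bmp1, which cleaves procollagen ends, had 14.2 TPM in replicate 1 and 15.7 in replicate 2. Lox, which cross-links collagen, was lowest, with 4 counts in replicate 1 and 7 in replicate 2.

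Other lists differed between the animals. The 6 ependymal markers with enough reads all had ratios above 1, with a median log2 ratio of 0.52, and Rarres2 had 9.13 TPM in replicate 1 and 7.42 in replicate 2. The 5 erythroid markers had a median of 0.51, led by Hba-a1 at 189.6 TPM in replicate 1 and 143.4 in replicate 2. Medians of the astrocyte, microglia and neuron lists were 0.022, 0.024 and -0.033. Among border macrophage markers Lyve1 had 24 counts in replicate 1 and 11 in replicate 2, and Ms4a7 had 7 counts in replicate 1 and 0 in replicate 2, where a count of 0 allows up to 3. How any of these lists bears on the vascular and meningeal genes was not tested.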
